A study of Mus musculus with 2 samples.

Results

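Granule-rich neutrophils of the mouse fracture callus, labelled immature, are described here from 2 libraries of single-cell RNA sequencing (scRNA-seq), named MGJ and MGJ2. Cells were chosen by their own readout, as barcodes with at least 200 genes and at most 20% mitochondrial UMIs in which, per 10000 UMIs, S100a8 and S100a9 summed to at least 100, Camp, Ngp and Ltf to at least 20, Mpo, Elane, Prtn3 and Ctsg to under 20, C1qa, C1qb and C1qc to under 10 and Acan to under 10, with no Csf1r UMI. A UMI (unique molecular identifier) marks 1 captured RNA molecule. In all, 1356 of 21266 barcodes that passed the filters were granule-rich neutrophils, out of 22304 deposited barcodes. They were 680 of 13460 in MGJ, a share of 5.05% (4.69 to 5.44%), and 676 of 7806 in MGJ2, a share of 8.66% (8.05 to 9.31%). Bracketed ranges throughout are exact 95% intervals and cover counting error only, not variation between mice or libraries. Since the genes of the rule picked the cells, the levels of those genes and all contrasts with other neutrophils are descriptions, and no test was run on them.

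The study examined how the callus changes during healing of a femoral fracture, held by a needle in the marrow cavity, in wild-type C57BL/6J male mice of 12 weeks. Calluses were taken at 10 days (n = 5) and 20 days (n = 5) after fracture, digested with enzymes and loaded for the 10x Genomics 3′ chemistry (V3). Both libraries carry the same labels (wild-type mice, callus after femoral fracture), and those labels give neither library a day, so the libraries were not compared as time points and each value is given for each library. Cells of single mice could not be told apart within a library, so every library counts as 1 sample without replicates. Libraries held 135304426 and 61130834 UMIs in all, and 19 barcodes occurred in both, of which 0 and 1 were members.

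Neutrophils mature in the bone marrow through stages that are named after the granules made in each. Promyelocytes fill primary (azurophil) granules with myeloperoxidase and serine proteases, myelocytes and metamyelocytes make secondary (specific) granules with lactoferrin, cathelicidin and neutrophilic granule protein, and later cells add gelatinase granules and secretory vesicles and leave the cell cycle. Camp encodes the cathelicidin precursor, an antimicrobial peptide. Ngp encodes neutrophilic granule protein, a relative of the cathelicidins, and Ltf encodes lactoferrin, which binds iron. The transcription factor C/EBPε, encoded by Cebpe, is known to be required for secondary granule genes. A fracture callus sits next to an opened marrow cavity, and neutrophils of both marrow and inflamed tissue can be found in it.

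The label of the cells was checked with Ly6g and Mmp8, the 2 markers on the list that the rule did not use. Neither gene was at its highest in the members with most Camp, Ngp and Ltf, as given below, so immaturity was not checked by them. Ly6g, the surface antigen that marks mouse neutrophils (ENSMUSG00000022582, GRCm38 chr15:75155240-75159126, + strand), was at 252 (238 to 267) UMIs per 1000000 UMIs of a population (CPM) in granule-rich neutrophils of MGJ and 296 (283 to 310.2) in MGJ2. Low-granule neutrophils, which met the same cuts but had Camp, Ngp and Ltf under 20 per 10000 UMIs, were at 43.1 and 48.1. Progenitors with primary granule genes, defined by Mpo, Elane, Prtn3 and Ctsg of at least 20 per 10000 UMIs with the same C1q, Acan and Csf1r cuts, were at 1.77 (0.215 to 6.41) and 1.71 (0.686 to 3.52). Ly6g was thus at its highest in the granule-rich cells in both libraries, with intervals that did not overlap those of either neighbour. Mmp8, neutrophil collagenase (ENSMUSG00000005800, GRCm38 chr9:7558456-7568485, + strand), showed the same order, with 559.5 and 954 CPM in granule-rich neutrophils, 152 and 424 in low-granule neutrophils and 6.21 and 2.68 in progenitors. Cells that should lack both genes gave the level of free RNA. In Acan-rich cells (Acan, a cartilage proteoglycan, at 10 per 10000 UMIs or more), Ly6g was at 0.106 and 0 and Mmp8 at 1.72 and 0.5, and in B-lineage cells (Cd79a and Cd79b at 10 or more) Ly6g was at 2.24 and 0. The comparison populations numbered 3489 and 1231 low-granule neutrophils, 64 and 128 progenitors, 3193 and 138 Acan-rich cells and 288 and 800 B-lineage cells.

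The secondary granule genes of the rule lie on mouse chromosome 9. Camp (ENSMUSG00000038357) spans GRCm38 chr9:109847379-109849617 on the - strand, Ngp (ENSMUSG00000032484) chr9:110419747-110423012 and Ltf (ENSMUSG00000032496) chr9:111019271-111042767, both on the + strand. C/EBP factors bind letters of the type TTNNGCAA, and these 8 letters were searched on both strands in the 250 bases upstream of every annotated start in the RefSeq promoter table (GRCm38.p6). Of 32851 promoters, 9.56% held a match. Of the 15 listed secondary granule genes that the table held, 5 did (Lcn2, Ltf, Mmp8, Ngp and Slpi), as did 1 of 9 primary granule genes (Plac8). Camp had no match in that window. Of the other 5 patterns, GAGGAAG, the type bound by PU.1, was found in 10.6% of all promoters, in 6 of 15 secondary and in 5 of 9 primary granule genes. TTNNGNAAT was found in 10.2% of all promoters, in 6 of 15 secondary and in 0 of 9 primary granule genes. The letters GTGGNAA were in 13.3% of all promoters, in 0 of 15 and in 2 of 9 genes. The letters TGTGGTT were in 4.40% of all promoters and in 1 gene of each list, and TTGCGNAA was in 0.670% of all promoters and in no gene of either list. Some patterns overlap, so the same bases can count for more than 1 of them. Stretches around the TTNNGCAA matches are shown for the genes described most in the text, 5′ to 3′ on the strand of the gene with the 8 matching letters in capitals. A match is a match of letters only and says nothing of binding. The positions on GRCm38 are chr9:110419650-110419697 for Ngp, chr9:111019197-111019244 for Ltf, chr9:7558390-7558428 for Mmp8 and chr15:75155011-75155056 for Ly6g, each upstream of every annotated start of its gene.
Ngp: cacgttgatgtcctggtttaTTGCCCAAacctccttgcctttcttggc
Ltf: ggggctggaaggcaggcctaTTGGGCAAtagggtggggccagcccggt
Mmp8: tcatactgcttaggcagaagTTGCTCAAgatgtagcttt
Ly6g: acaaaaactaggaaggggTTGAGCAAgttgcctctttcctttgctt

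Together, S100a8, S100a9 and the granule genes of the rule took up a large part of the RNA of these cells. S100a8 and S100a9, which encode the subunits of calprotectin, made up a median of 31.4% of a granule-rich cell's UMIs in MGJ and 24.8% in MGJ2, and Camp, Ngp and Ltf a further 5.57% and 7.38%. In low-granule neutrophils the S100 pair had medians of 9.72% and 4.13%, and in progenitors 7.19% and 6.66%. All 3 secondary granule genes of the rule were detected in 505 members of MGJ (74.3%) and 535 of MGJ2 (79.1%). Single genes were detected in 87.5% and 90.1% of members for Camp, 98.8% and 99.9% for Ngp and 75.4% and 80.8% for Ltf. Median depth was 5323.5 and 7160 UMIs per member, against 1851 and 2311 per low-granule neutrophil and 16796.5 and 30112 per progenitor. Depth thus fell in the order progenitor, granule-rich and low-granule in both libraries, and mitochondrial shares were low in members, with medians of 0.994% and 0.977%.

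**Figure D1:**
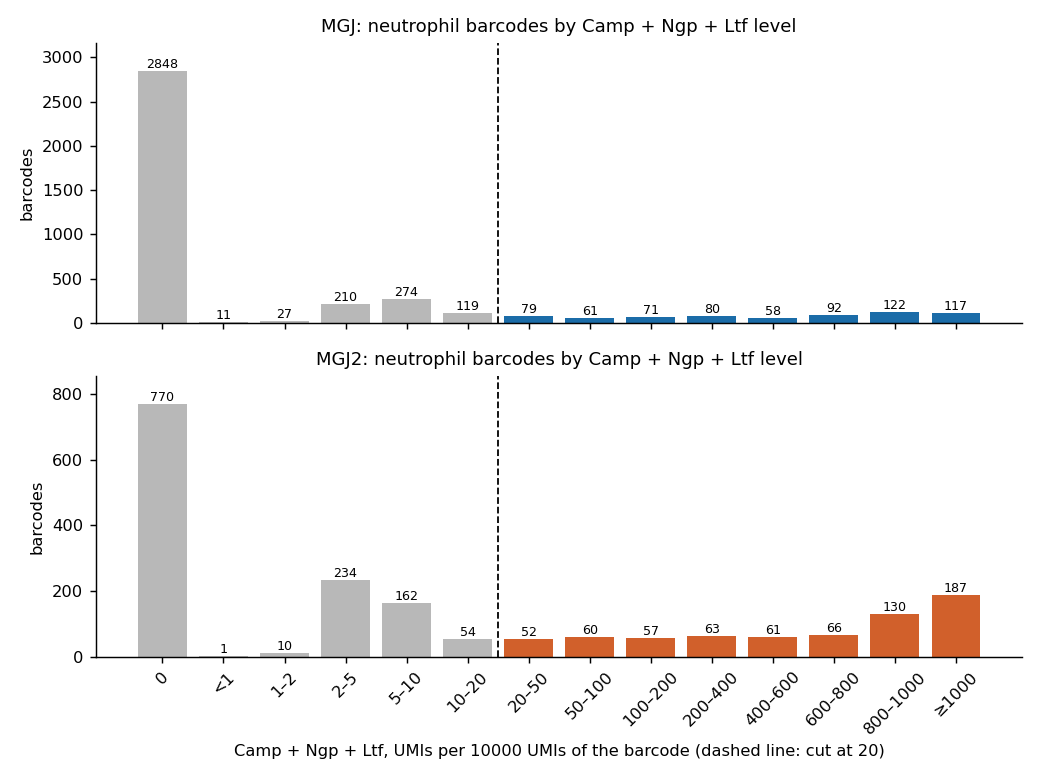
Number of neutrophil barcodes (vertical axis) by the summed level of Camp, Ngp and Ltf per 10000 UMIs (horizontal axis, bins of unequal width) in MGJ (top) and MGJ2 (bottom), with granule-rich members in colour to the right of the cut at 20 and low-granule neutrophils in grey. Between the 770 or more barcodes at 0 and the rise above 800 per 10000, the bins from 20 to 600 held 52 to 80 barcodes each.

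The summed level of Camp, Ngp and Ltf was spread widely among members, as the plot of barcodes by granule gene level shows. It ran from 20.2 to 1841 per 10000 UMIs in MGJ, with a median of 557 (quartiles 145 and 923), and from 21.0 to 3692 in MGJ2, with a median of 738 (quartiles 202 and 1021). Most members were far above the cut, and 389 of MGJ (57.2%) and 444 of MGJ2 (65.7%) were at 400 per 10000 or more. The lower bins held 80, 71, 61 and 79 members of MGJ and 63, 57, 60 and 52 of MGJ2, for 200 to 400, 100 to 200, 50 to 100 and 20 to 50 per 10000. Just inside the cut, at 20 to 40 per 10000, lay 55 and 40 members with medians of 7 and 12 UMIs of the 3 genes, and just outside, at 10 to 20, lay 119 and 54 barcodes with medians of 3 UMIs in both libraries. Ly6g was at 209 and 245 CPM just inside and 121 and 85.9 just outside, and Mmp8 at 863 and 1966 inside and 499.8 and 819 outside. Only 2 members in each library had fewer than 3 UMIs of the 3 genes. Of the 787 and 811 barcodes high in both the S100 pair and the secondary granule genes, the other cuts set aside 107 (13.6%) and 135 (16.6%), namely 37 and 75 for primary granule genes, 42 and 1 for Acan, 31 and 66 for Csf1r and 9 and 0 for C1q, some of them for more than 1 gene.

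Members were then followed from high to low granule gene level, in 5 bins cut on Camp, Ngp and Ltf. The order of the bins is an order of level and was not measured as time. Within the sum that set the bins, the make-up of the 3 genes changed. Progenitors held 2.10 (2.04 to 2.15) Camp UMIs per Ngp UMI in MGJ and 2.13 (2.10 to 2.16) in MGJ2. Members at 400 per 10000 or more held 0.799 (0.793 to 0.805) and 0.788 (0.783 to 0.792), and those at 100 to 200 held 0.196 (0.181 to 0.212) and 0.109 (0.0980 to 0.121). The ratio thus fell by more than the intervals at each of these steps in both libraries. At 20 to 50 per 10000 the ratio was 0.187 (0.159 to 0.219) in MGJ, whose interval overlapped that at 50 to 100 (0.163), and 0.0309 (0.0190 to 0.0476) in MGJ2, where it was lower than at 50 to 100 (0.0643). Acan-rich cells, used here to read free RNA, had ratios of 0.947 (0.865 to 1.04) and 0.747 (0.529 to 1.05), and low-granule neutrophils 0.356 and 0.421. Among progenitors and the bins of members, Ltf had its highest share at the top, with 0.103 and 0.174 UMIs per Ngp UMI at 400 or more, against 0.0443 and 0.0339 in progenitors and 0.0434 and 0.0350 at 100 to 200. In low-granule neutrophils the ratio was 0.139 (0.112 to 0.171) and 0.141 (0.109 to 0.181), and in Acan-rich cells 0.152 (0.127 to 0.181) and 0.289 (0.176 to 0.460).

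Other secondary granule genes differed in where along the scale they were highest. Chil3, the chitinase-like protein Ym1, was at 1495 CPM in progenitors of MGJ and, from the top bin to the lowest, at 8308, 1832, 516, 277 and 118. In MGJ2 it was at 1339 in progenitors and then at 9515, 1032, 424, 212 and 184. Chil3 was thus concentrated in members at 400 or more in both libraries. Lcn2, lipocalin 2, which captures bacterial siderophores, also peaked there, at 14093 and 10474, but stayed at 8527 and 3949.8 in the lowest bin. In low-granule neutrophils Lcn2 was at 8674 in MGJ and 1143 in MGJ2, and the difference between the libraries was not tested. Orm1, the acute phase protein orosomucoid, was at 392 and 169 at 400 or more, at 17.6 and 2.77 at 200 to 400, and had no UMI in the 3 lower bins of either library. Itgb2l, an integrin β2-like chain, went from 143 and 207 at the top to 17.7 and 58.01 in the lowest bin. Cd177, a surface protein of secondary granules, went from 624 and 1008 to 224 and 324. Lyz2, lysozyme, went from 4989.7 to 1474 in MGJ, and in MGJ2 from 5527 to 2569 at 200 to 400 and back to 3578 in the lowest bin.

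Mmp8, Retnlg, Mmp9 and Cxcr2 were lower at the top of the scale than in bins below it. With each barcode thinned to 1000 UMIs, Fcnb of the gelatinase granule list was found in 13.2% and 19.9% of members at 400 or more. At 200 to 400 Fcnb was found in 0 of 80 and 0 of 63, so it did not follow this order. From the top bin to the lowest, Mmp8 was at 253, 1334, 1631, 1159 and 918 CPM in MGJ and 656, 2625, 2361, 1966 and 1953 in MGJ2, and at 152 and 424 in low-granule neutrophils. Mmp8 was therefore higher in every lower bin than at 400 or more, and each bin taken as a whole was above low-granule neutrophils. Within the top bin this did not hold throughout. Its members at 1000 or more had Mmp8 at 25.7 CPM in MGJ and 205 in MGJ2, below low-granule neutrophils of the same library. Retnlg, resistin-like gamma, a secreted protein of neutrophils, was at 6311, 21648, 35722, 26859 and 16606 in MGJ and 5606, 33235, 36363, 34886 and 33968 in MGJ2. In low-granule neutrophils Retnlg was at 2287 and 5831, and in progenitors at 214 and 107. Mmp9, gelatinase B, the protease that names the gelatinase granule, was at 141 and 240.1 at the top and 459 and 696 at 200 to 400. Cxcr2, the chemokine receptor through which neutrophils leave the marrow, was at 57.03 and 108 at the top, 373 and 774 at 100 to 200 and 238 and 977 in the lowest bin. Slpi, a secreted inhibitor of neutrophil elastase, was highest outside the members. It went from 947 and 413 at the top to 5985 and 3399 in the lowest bin, and was at 9549.7 and 4416 in low-granule neutrophils. Ly6g was at 248, 257, 359, 200.2 and 227 in MGJ and 297, 291, 343, 280.5 and 242 in MGJ2, a range of less than 2-fold in either library. It was above its level in low-granule neutrophils in every bin.

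**Figure D2:**
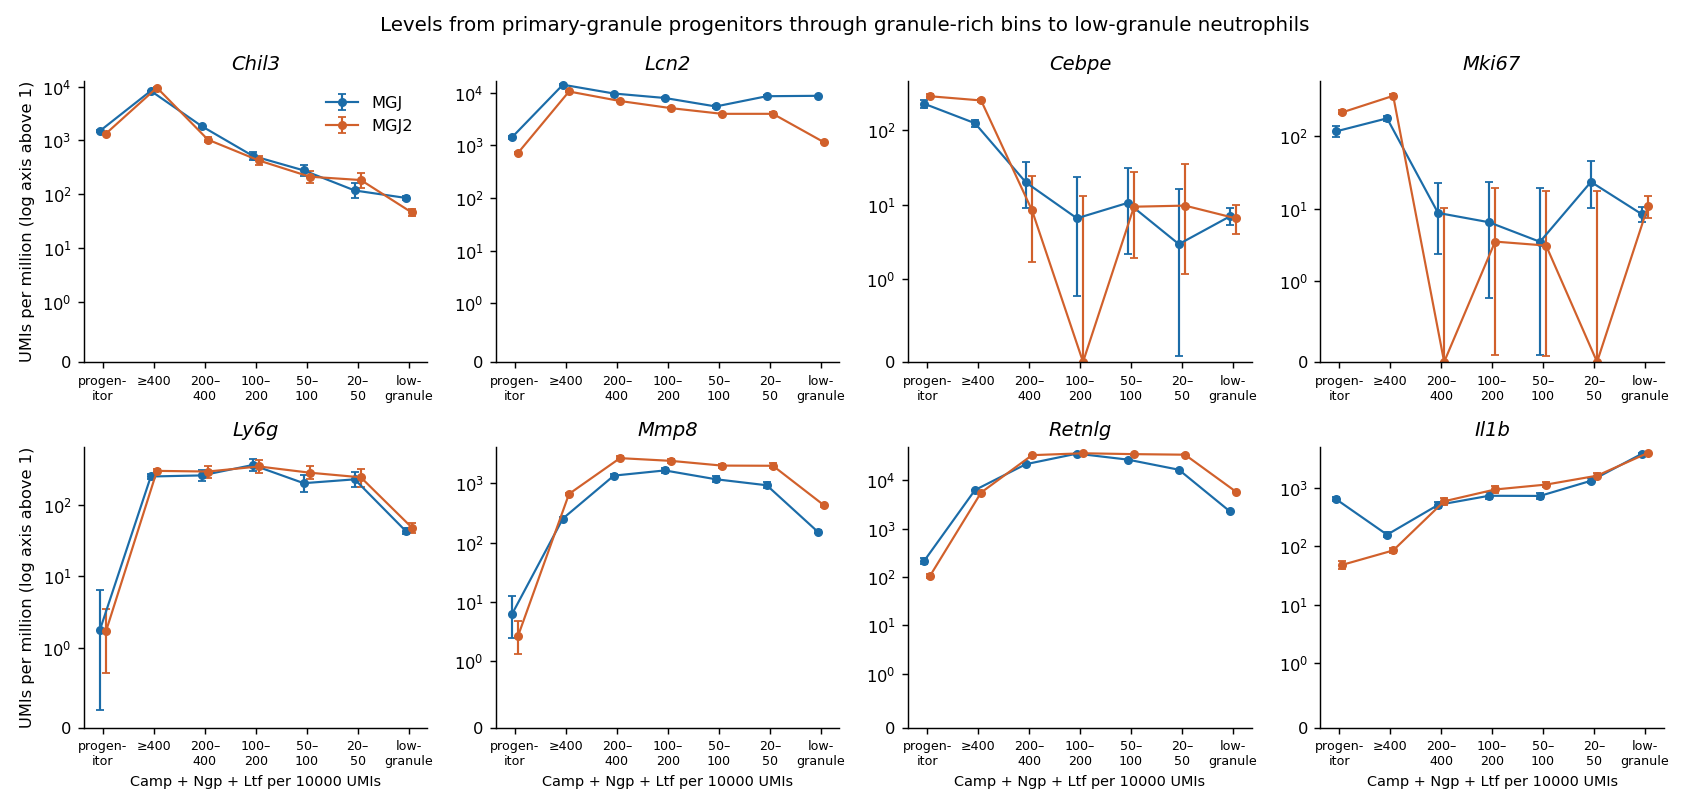
Levels of 8 genes in CPM (vertical axis, log above 1 and linear below) in progenitors, in the 5 bins of granule-rich neutrophils from 400 or more down to 20 to 50 Camp, Ngp and Ltf UMIs per 10000, and in low-granule neutrophils; points are summed UMIs of a library and bars exact 95% Poisson intervals. Chil3 was highest at 400 or more, and Cebpe and Mki67 were high in progenitors and at 400 or more and low below it. Mmp8 and Retnlg were highest in the bins below 400, and Il1b was highest in low-granule neutrophils.

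The top bin was itself not uniform. Cutting it at 600, 800 and 1000 per 10000, a division chosen after its values were seen, gave 58, 92, 122 and 117 members in MGJ and 61, 66, 130 and 187 in MGJ2. From 400 to 600 upwards, Mmp8 was at 765, 415, 176 and 25.7 CPM in MGJ and 2354, 1386, 608 and 205 in MGJ2. Retnlg was at 14555, 8529.8, 5363 and 2597 and 19748, 9388, 4408 and 2906, and Chil3 at 4402, 6622, 8520.2 and 10653 and 3513, 6915, 9118 and 11467. The decline of Mmp8 and Retnlg and the rise of Chil3 toward the highest granule gene level therefore continued within the top bin in both libraries. Il1b, the cytokine interleukin 1β, was at 449.5 and 359 at 400 to 600 and 25.7 and 25.8 at 1000 or more. Fcnb, ficolin B, a lectin of immature neutrophils, was at 143, 101, 340.3 and 384 in MGJ and 71.9, 357, 538 and 503 in MGJ2. Mki67 was at 45.4, 129.9, 180.4 and 254 and 40.4, 155, 428 and 429, so proliferation genes were also least abundant at 400 to 600.

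Within the members, cell cycle genes were concentrated in the top bin. Summed over 27 listed genes of G2 and M phase, the level was 3289 CPM at 400 or more in MGJ and 4998 in MGJ2, beside 3419 and 4999 in progenitors. The cells behind these sums differed, since the median cell of the top bin was at 761 and 968 and the median progenitor at 3302 and 4343. At 200 to 400 it was 646 and 399.5, and in low-granule neutrophils 756 and 851. The 25 S phase genes, which serve DNA replication, fell already between progenitors (2104 and 2780.2) and the top bin (742 and 1533), and again to 141 and 105 at 200 to 400. With each barcode thinned to 1000 UMIs, Mki67, the proliferation antigen Ki67, was found in 9.82% (7.04 to 13.2%) of members at 400 or more in MGJ and 15.8% (12.5 to 19.5%) in MGJ2. In progenitors it was found in 17.2% (8.90 to 28.7%) and 22.05% (15.2 to 30.3%). At 200 to 400 it was found in 0 of 80 (0 to 4.51%) and 0 of 63 (0 to 5.69%) members, and a floor of 3 counts would be 3.75% and 4.76% of cells with a UMI at this depth. Before thinning the shares were 33.2% and 34.2% at 400 or more and 60.9% and 84.4% in progenitors. Top2a, topoisomerase IIα, was found in 6.98% (4.65 to 9.99%) and 12.2% (9.29 to 15.6%) at 400 or more, and in 1.24% and 1.48% of Acan-rich cells. Acan-rich cells divide too, so they are no measure of free RNA for these genes, and Mki67 was found in 0.489% and 0.332% of low-granule neutrophils.

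Thinned shares of cells with a UMI followed the same pattern for the markers. Ly6g was found in 23.4% (20.3 to 26.8%) of members of MGJ and 29.4% (25.9 to 32.96%) of MGJ2 at 1000 UMIs (62.6% and 73.8% before thinning), in 3.03% (2.47 to 3.67%) and 3.07% (2.17 to 4.21%) of low-granule neutrophils and in 0 of 64 (0 to 5.60%) and 0 of 127 (0 to 2.86%) progenitors. A count of 0 at this depth limits the share of cells with a UMI after thinning, to 4.69% and 2.36% by a floor of 3 counts, and not the share that express the gene, and 3.12% and 4.69% of progenitors had a Ly6g UMI before thinning. Mmp8 was found in 40.3% (36.6 to 44.1%) and 54.99% (51.1 to 58.8%) of members, and in 77.5% and 85.5% of those at 100 to 200 per 10000. As the level of free RNA, Mmp8 was found in 0.191% and 0% of Acan-rich and 0.717% and 0% of B-lineage cells, whose median depths before thinning were 20572 and 27953 and 1940.5 and 3298 UMIs. Thinning left out 5 members in each library and 220 and 26 low-granule neutrophils that were shallower.

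Among transcription factors, Cebpe followed the top of the scale. It was at 225 (198 to 255) CPM in progenitors of MGJ and 283 (267 to 299.9) in MGJ2, at 123 (111 to 136) and 249 (235 to 263) in members at 400 or more, and at 19.8 (9.04 to 37.5) and 8.32 (1.72 to 24.3) at 200 to 400. Within the top bin, Cebpe was at 70.4, 128, 133 and 132 in MGJ and 38.2, 159.5, 302 and 275 in MGJ2 from 400 to 600 upwards, so it was already lowest at 400 to 600 there. Gfi1, a transcriptional repressor that acts in early granulopoiesis, was rare, at 1.75 and 4.43 in members and 7.10 and 44.1 in progenitors. Cebpb, which drives emergency granulopoiesis, went the other way. It was at 932 and 396 in progenitors, 1649.9 and 1130.5 in the top bin, 3009.9 and 4119 in the lowest and 4396 and 5016 in low-granule neutrophils. Mxd1, which opposes Myc, was 99.4 and 89.8 in progenitors and 891 and 1151 in the top bin. Myb, a factor of dividing progenitors, was at 78.96 and 204 in progenitors and 8.99 and 40.7 in members.

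Against low-granule neutrophils of the same library, 2071 genes in MGJ and 2643 in MGJ2 had at least 50 CPM in either population and were compared, with the genes of the rule left out. A gene was counted past the fold when its ratio of CPM was at least 2 or at most 0.5 and its interval lay wholly on that side of 1. By this count 284 genes (13.7%) were higher and 580 (28%) lower in granule-rich neutrophils of MGJ, and 591 (22.4%) higher and 779 (29.5%) lower in MGJ2. The median log2 ratio over all compared genes was -0.26 and -0.17. The S100 and granule RNAs of the rule fill much of these cells' UMIs, and with the genes of the rule left out of the denominator every log2 ratio moved up by 0.49 and 0.46, 791 and 1235 genes were higher and 334 and 563 lower, so the share of higher genes among those past the fold went from 32.9% and 43.1% to 70.3% and 68.7%. Log2 ratios smaller than this shift have no settled sign.

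The genes with the largest ratios in both libraries were Ldhc, Fcnb, Orm1, Chil3, Krt81, Lmo1, Ms4a3, Hist1h2ap, Adpgk and Itgb2l. Ldhc, a lactate dehydrogenase subunit best known from testis, was at 270.2 CPM in members of MGJ and 252 in MGJ2. In low-granule neutrophils it had 2 and 4 UMIs, giving ratios of 1091 (302 to 9023) and 203 (79.1 to 745). Fcnb had ratios of 144 (80.3 to 290.2) and 601 (166 to 4969), and Chil3 of 70.4 (65.2 to 75.98) and 171 (145 to 202). For Orm1 the ratio was 123 (77.7 to 209) in MGJ. In MGJ2 low-granule neutrophils had no Orm1 UMI. The ratio there was 148 against a floor of 3 UMIs over that population, with an exact lower limit of 120. These genes were named for the size of their ratio, in cells themselves chosen on granule genes, so the ratios are descriptions. Krt81, a hair keratin, was at 339 and 481 in members and 0.990 and 8.07 in low-granule neutrophils. Adpgk, the ADP-dependent glucokinase, had ratios of 40.03 and 35.7, Itgb2l of 72.4 and 33.4, Lmo1, a LIM-only protein, of 51.6 and 110.4 and Ms4a3, a membrane protein of granulocyte progenitors, of 61.3 and 39.4. Hist1h2ap, a replication-dependent histone gene with near-identical copies whose reads may be split, had ratios of 37.9 and 176.

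The genes with the smallest ratios in both libraries were Plet1, Fam102a, Cxcl3, Gpr35, Gm20186, Ccl4, Rsad2, Ccl3, Bcl2a1a and Csf3. Ccl3 and Ccl4, chemokines of activated neutrophils and macrophages, were at 1378 and 1149 CPM in members of MGJ against 15774 and 13512 in low-granule neutrophils. In MGJ2 Ccl3 was at 78.7 against 2356 and Ccl4 at 87.2 against 1754. The ratios of Ccl3 were 0.0874 (0.0852 to 0.0896) and 0.0334 (0.0304 to 0.0366). Csf3, the granulocyte growth factor G-CSF, had ratios of 0.0901 and 0.0248, and Cxcl3, a ligand of Cxcr2, of 0.0775 and 0.0365. Rsad2, the interferon-induced antiviral protein viperin, had ratios of 0.0854 and 0.0190. Bcl2a1a, a survival gene of the Bcl2 family with near-identical copies, had ratios of 0.0897 and 0.0385, which are uncertain for that reason. Gpr35, a receptor of the G protein type, had ratios of 0.0846 and 0.0402, Fam102a of 0.0427 and 0.0719 and Gm20186 of 0.0814 and 0.0850. Plet1 had a ratio of 0.0566 in MGJ, and in MGJ2 members had no Plet1 UMI against 53.1 CPM in low-granule neutrophils.

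**Figure D3:**
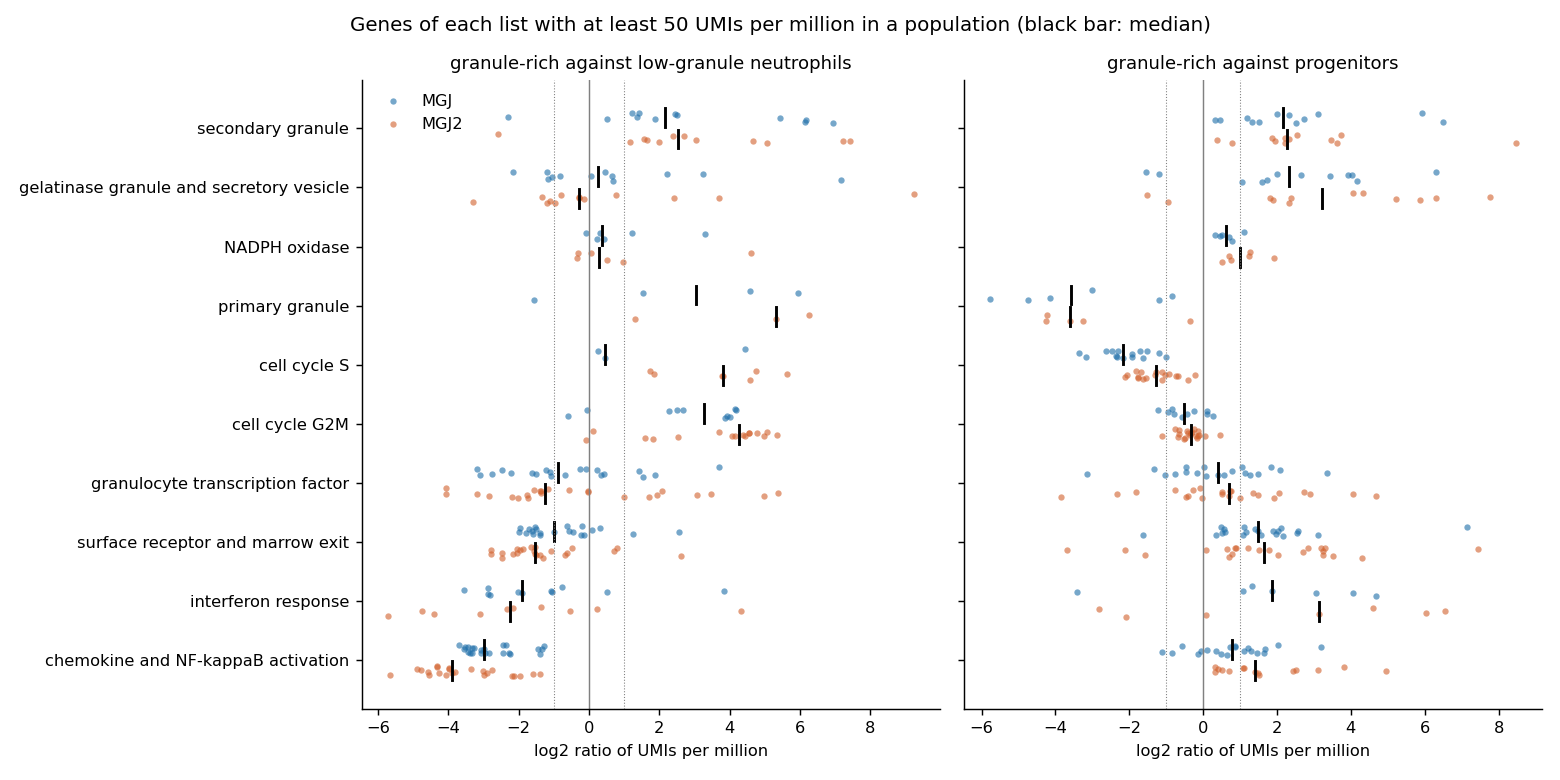
Log2 ratios of CPM (horizontal axis) of granule-rich neutrophils against low-granule neutrophils (left) and against progenitors (right), with 1 point for each listed gene at 50 CPM or more, a black bar at the median of a list and library, and dotted lines at 2-fold. Secondary granule genes lay mostly to the right in both panels, all 23 chemokine and NF-κB genes of each library lay left of 0 against low-granule neutrophils, and all S phase genes lay left of 0 against progenitors.

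By list, 10 of 12 secondary granule genes outside the rule were past the fold as higher in MGJ and 11 of 12 in MGJ2, with Slpi lower in both (log2 ratios of -2.30 and -2.58). The list had a median log2 ratio of 2.17 and 2.54, beside -0.26 and -0.17 over all genes. The exception in MGJ was Lcn2, at 0.50. Of G2 and M phase genes, 8 of 10 and 14 of 16 were higher, among them Birc5, an inhibitor of apoptosis in mitosis (4.17 and 4.97), and Cdk1, the mitotic kinase (4.14 and 5.06). Of the 25 S phase genes, 3 and 7 reached 50 CPM in either population. In MGJ 1 of the 3 was past the fold as higher, with a list median of 0.44. In MGJ2 all 7 were, with a median of 3.81. Rrm2, a subunit of ribonucleotide reductase, was at 4.42 and 5.61. Cell cycle genes are scarce in low-granule neutrophils, so those compared mostly passed the filter through the members, and their counts of higher genes are in part fixed by that filter. Of the gelatinase granule and secretory vesicle list, 3 genes were higher and 4 lower of 12 in MGJ, and 3 and 4 of 13 in MGJ2. Over all genes 13.7% were higher and 28% lower in MGJ and 22.4% and 29.5% in MGJ2, and nothing is read about the list as a whole from these few genes. Higher in both libraries were Fcnb, Anxa1, which encodes annexin A1 (3.24 and 3.69), and Mmp25, a membrane-anchored protease (2.22 and 2.42). Lower in both were Slc11a1, a metal transporter of phagosomes (-2.15 and -3.30), the formyl peptide receptors Fpr1 and Fpr2, and Cd9. The median of this list in MGJ2, -0.29, turned to 0.17 with the genes of the rule left out of the denominator. Of the NADPH oxidase genes, Cybb, the catalytic subunit gp91phox, was higher in both (3.29 and 4.61), Cyba was past the fold in MGJ (1.22) and not in MGJ2 (0.96), and Ncf1, Ncf4 and Rac2 were within 2-fold in both.

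Surface receptors and transcription factors were then compared with low-granule neutrophils. Over all compared genes 13.7% were higher and 28% lower in MGJ, and 22.4% and 29.5% in MGJ2. Of 21 surface receptors compared in MGJ, 11 were lower and 2 higher, and of 23 in MGJ2, 17 and 1, with median log2 ratios of -1.01 and -1.55. With the genes of the rule left out of the denominator, 8 of 23 and 14 of 23 were lower, with medians of -0.43 and -1.09. Over all genes compared in that setting, 334 of 2658 in MGJ and 563 of 3241 in MGJ2 were lower. Csf3r, the G-CSF receptor, was at -1.95 and -2.49, Il1r2, the decoy receptor of interleukin 1, at -1.59 and -2.79, and Cxcr4, which retains neutrophils in the marrow, at -1.51 and -2.05. Ly6g was the receptor higher in both libraries, at 2.55 and 2.62. Cxcr2 was within 2-fold in MGJ (-0.24) and lower in MGJ2 (-1.30). Primary granule genes outside the rule were mostly higher, 3 of 4 in MGJ and 3 of 3 in MGJ2, and 1 was lower in MGJ. Serpinb1a was at 4.58 and 6.25. Ms4a3 was at 0.867 and 1.86 CPM in low-granule neutrophils, so it passed the filter of 50 CPM through the members. The counts of higher primary granule genes are thus in part fixed by that filter. Ly6c2, a monocyte and immature myeloid surface marker, was higher (3.05 and 2.35) and Cd68, a lysosomal protein, lower (-2.08 and -3.08). Of the transcription factors, 4 of 20 and 8 of 24 were higher and 10 and 13 lower. Cebpe (3.68 and 4.97), Cebpz, Ets1 and Lmo4 were higher in both. Junb (-2.75 and -3.18), Atf3, Egr1, Klf2, Klf6 and Runx1, most of them factors induced quickly by stimulation, were lower in both. The list of transcription factors had a median of -0.87 and -1.27, which became 0.02 and -0.71 with the genes of the rule left out of the denominator, where 7 of 22 and 9 of 25 were lower, so in MGJ its sign turned with the scaling.

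All 23 compared genes of the chemokine and NF-κB list were lower than in low-granule neutrophils in both libraries, with median log2 ratios of -2.98 and -3.89. They included Il1b (-3.45 and -3.97), Tnf (-3.08 and -3.81), the Cxcr2 ligand Cxcl2 (-3.34 and -4.55) and Nfkbia, the inhibitor induced by NF-κB (-2.25 and -2.77). Over all compared genes 28% were lower in MGJ and 29.5% in MGJ2. Low-granule neutrophils were largely chemokine-rich, and only 335 of 3489 in MGJ and 537 of 1231 in MGJ2 had Ccl3 and Ccl4 under 10 per 10000 UMIs. Against these, a comparison added after seeing the data and chosen on 2 genes of the list, 11 of 23 genes were lower and 2 higher in MGJ and 21 and 0 of 23 in MGJ2, with medians of -0.95 and -2.72. Over all genes in that comparison, 711 of 2360 were lower and 176 higher in MGJ, and 765 and 527 of 2654 in MGJ2. Ccl3 and Ccl4 themselves turned to log2 ratios of 2.64 and 2.96 in MGJ. Of the secondary granule genes, 10 of 12 were higher in MGJ and 10 of 12 in MGJ2 in this comparison. Along the granule gene level, the summed list went from 7885 CPM at 400 or more to 48027 in the lowest bin of MGJ and from 2368 to 14209 in MGJ2. In low-granule neutrophils it was 112819.5 and 41512. B-lineage cells held Ccl3 at 1117 CPM in MGJ, beside 1378 in members, and at 47.6 beside 78.7 in MGJ2, and the part of free RNA in the members' level was not tested.

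The interferon response list was also mostly lower, with 8 of 11 genes in MGJ and 7 of 10 in MGJ2, among them Isg15 (-2.88 and -4.41) and Ifitm1 (-2.83 and -4.74). Ifitm6, a myeloid member of the family, was the gene that went against it, at 3.84 and 4.32. It was at 2096 and 1232 CPM at 400 or more and 128 and 54.6 in low-granule neutrophils. Of the glycolysis list, 2 genes were higher and 4 lower of 14 in MGJ, near the shares over all genes (13.7% and 28%), and 7 and 2 of 13 in MGJ2 (22.4% and 29.5% over all genes). Ldha, which makes lactate (1.65 and 3.08), and Gpi1 (2.10 and 2.26) were higher in both, and the glucose transporter Slc2a1 (-1.69 and -2.57) and Pfkfb3, an activator of glycolysis (-2.46 and -2.89), were lower in both. The median of the list in MGJ turned from -0.19 to 0.29 with the genes of the rule left out of the denominator.

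**Figure D4:**
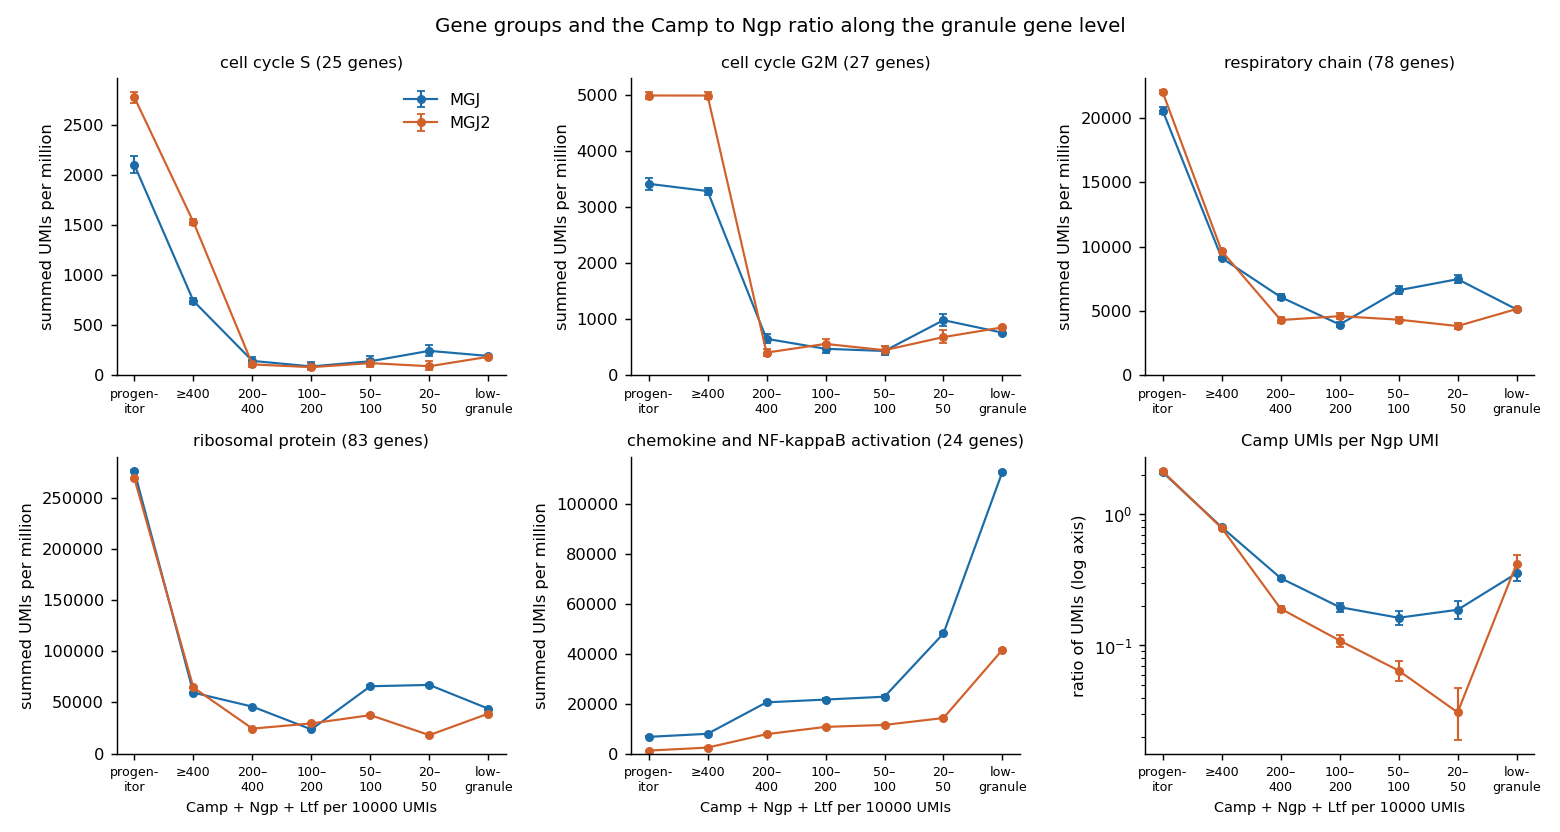
Summed CPM of 5 gene lists (vertical axes from 0) and the ratio of Camp to Ngp UMIs (log axis) in progenitors, in the 5 bins of granule-rich neutrophils and in low-granule neutrophils of MGJ (blue) and MGJ2 (orange); bars are exact 95% intervals. S and G2M genes were low in every bin under 400, ribosomal protein RNA dropped between progenitors and the top bin, and the chemokine and NF-κB sum was highest in low-granule neutrophils.

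Against progenitors with primary granule genes, 2552 and 3106 genes were compared, and 431 (16.9%) were higher and 1061 (41.6%) lower in granule-rich neutrophils of MGJ, and 609 (19.6%) higher and 1070 (34.4%) lower in MGJ2. The median log2 ratio over all of them was -0.67 and -0.43, and 819 and 1025 genes were higher and 812 and 874 lower with the genes of the rule left out of the denominator, which added 0.48 and 0.41 to each log2 ratio. Progenitors were chosen on primary granule genes alone, and 46 of 64 and 85 of 128 also met the S100 cut, and 35 and 69 the secondary granule cut. Camp was at 14355 and 11687 CPM in them, found in 50% (37.2 to 62.8%) and 54.3% (45.3 to 63.2%) of barcodes thinned to 1000 UMIs, so part of this class already carried secondary granule RNA.

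Ly6g, Mmp8, Plbd1, Mmp9, St3gal5, Retnlg, Acvrl1, Ifi27l2a, Bst1 and 6430548M08Rik had the largest ratios in both libraries. The ratio of Ly6g was 142 (39.2 to 1174) in MGJ and 174 (84.1 to 432) in MGJ2, with 2 and 7 UMIs in progenitors. Mmp8 had ratios of 90.1 (43.7 to 224) and 356 (199 to 713), and Mmp9 of 78.9 (26.9 to 383) and 218 (99.9 to 594). These genes of granules and of the surface were close to absent from progenitors and present in members. Retnlg went from 214 and 107 CPM to 11866 and 10974, ratios of 55.5 and 103. Plbd1, a phospholipase B-like protein, had ratios of 79.2 and 80.4, St3gal5, which makes the ganglioside GM3, of 68.7 and 402, and Bst1, the surface enzyme CD157, of 30.9 and 124. Acvrl1, the receptor ALK1, had ratios of 46.5 and 70.6, Ifi27l2a, an interferon-induced gene, of 33.3 and 36.99 and 6430548M08Rik of 26.5 and 38.7.

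The smallest ratios belonged to Prss34, Mcpt8, Cpa3, Cst7, Phgdh, Gstm1, C1qbp, Sdf2l1, Prss57 and Nkg7. Prss34, Mcpt8 and Cpa3 are proteases of basophils and mast cells. Prss34 was at 702 and 772 CPM in progenitors and 0.439 and 0.475 in members, and Mcpt8 at 615 and 785 against 0 and 0.475. In progenitors, 2 of 64 and 14 of 128 barcodes carried these 3 genes at 10 per 10000 UMIs or more and 57 and 81 had no UMI of them, while 0 members in either library reached that level, so a minority of the comparison cells carried these genes. Prss57, a serine protease of primary granules, had ratios of 0.0370 and 0.0526, and Nkg7, a protein of cytotoxic and primary granules, of 0.0184 and 0.0531. Phgdh, the first enzyme of serine synthesis, had ratios of 0.0249 and 0.0140, C1qbp, a mitochondrial protein, of 0.0464 and 0.00961, and Sdf2l1, of the endoplasmic reticulum, of 0.0483 and 0.0259. Cst7, cystatin F, had ratios of 0.00677 and 0.0108 and Gstm1, a glutathione transferase, of 0.0263 and 0.0420.

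By list, 10 of 12 secondary granule genes in each library were higher than in progenitors, with Hp and Pglyrp1 within 2-fold, and the medians were 2.17 and 2.27. Over all genes compared with progenitors, 16.9% were higher and 41.6% lower in MGJ, and 19.6% and 34.4% in MGJ2. Of gelatinase granule and secretory vesicle genes, 10 of 12 were higher in either library, with Fpr1 at 4.02 and 5.86 and Adam8, a membrane protease, at 3.44 and 4.34. Cd63, a membrane protein of primary granules, was lower in both (-1.21 and -1.53). Of primary granule genes outside the rule, 5 of 6 and 4 of 5 were lower, and Serpinb1a, an inhibitor of neutrophil elastase, was within 2-fold (-0.85 and -0.36). Ms4a3, Prtn3 and Elane still had 75.6, 75.3 and 25.8 CPM at 400 or more in MGJ and 89.8, 75.4 and 49.5 in MGJ2. At 200 to 400, Ms4a3 was at 2.20 and 0, Prtn3 at 0 and 2.77 and Elane at 2.20 and 0. Prtn3 and Elane are held down by a cut of the rule, so their levels are descriptions, and the part of that cut in each bin was not tested. Of S phase genes, 14 of 15 and 13 of 18 were lower, but of G2 and M phase genes only 1 of 10 (Birc5) and 1 of 20 (Aurkb), and the median of that list, -0.51 and -0.34, turned to 0.08 and 0.07 without the genes of the rule in the denominator.

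Surface receptors of neutrophils were mostly higher in granule-rich cells than in progenitors, with 15 of 21 higher and 1 lower in MGJ and 13 of 22 and 3 in MGJ2. Over all compared genes 16.9% were higher and 41.6% lower in MGJ, and 19.6% and 34.4% in MGJ2. Cd33, a sialic acid-binding lectin, had log2 ratios of 3.12 and 4.30, Trem1, which amplifies inflammatory signals, of 2.53 and 3.30, and C5ar1, the receptor of complement C5a, of 1.88 and 2.71. Csf3r was within 2-fold (0.35 and 0.79), and Fcgr2b, the inhibitory Fc receptor, was lower in both (-1.63 and -1.57). Against low-granule neutrophils Cd33, Trem1 and C5ar1 had log2 ratios of -0.21, -1.53 and -1.63 in MGJ and -1.08, -2.05 and -1.66 in MGJ2, so members lay between the other populations for Trem1 and C5ar1. Of transcription factors, 7 of 19 and 9 of 23 were higher than in progenitors and 3 in each library lower, with Mxd1 at 3.35 and 4.04, Cebpb at 1.14 and 1.92 and Myb at -3.13 and -2.33. Of the chemokine and NF-κB list, 8 of 20 were higher and 1 lower in MGJ and 10 and 0 of 15 in MGJ2, and of the interferon list 6 and 1 of 7 and 4 and 2 of 7. Cybb was higher in both libraries (1.10 and 1.93), Cyba, Ncf4 and Rac2 were within 2-fold in both, and Ncf1 was within 2-fold in MGJ (0.77) and higher in MGJ2 (1.26). Cybb was at 979, 426, 222, 148 and 121 CPM from the top bin to the lowest in MGJ and 1717, 599, 357, 243 and 232 in MGJ2, so it was highest at 400 or more.

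Genes of translation and respiration were lower than in progenitors, the ribosomal protein genes by more. Over all genes compared with progenitors, 41.6% and 34.4% were lower. Over those compared with low-granule neutrophils, 13.7% and 22.4% were higher. All 80 compared ribosomal protein genes were lower in each library, with medians of -2.31 and -2.27, and 78 and 77 of them were lower without the genes of the rule in the denominator. Their summed level was 275911 CPM in progenitors of MGJ and 59512 in members at 400 or more, and 268906 and 64534 in MGJ2. Of respiratory chain genes, 54 of 70 and 58 of 72 were lower, with medians of -1.31 and -1.51. Without the genes of the rule in the denominator, 32 of 72 and 40 of 74 were lower, with medians of -0.88 and -1.11. Over all genes compared with progenitors in that setting, 812 of 3122 and 874 of 3716 were lower. Median depth fell from 16796.5 and 30112 UMIs per progenitor to 7100 and 8956 per member at 400 or more, and how far the total RNA of a cell sets these shares was not tested. Against low-granule neutrophils the respiratory chain was higher, with 17 of 52 genes past the fold in MGJ and 31 of 53, against 1 lower, in MGJ2, and medians of 0.86 and 1.12, except that against low-granule neutrophils low in Ccl3 and Ccl4 the median in MGJ was -0.28. Ribosomal protein genes had medians of 0.38 and 0.71 there, with 0 and 21 of 79 past the fold, and the median in MGJ turned to -0.74 in the same alternative. Without the genes of the rule in the denominator, 26 and 51 of 79 ribosomal protein genes were higher (medians 0.86 and 1.17). So were 44 and 47 of 61 respiratory chain genes. Over all genes compared in that setting, 791 of 2658 in MGJ and 1235 of 3241 in MGJ2 were higher. The ribosomal count in MGJ was near that share, and nothing is read from it.

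Markers of other cell types were followed in the members as summed levels. The 10 B-lineage genes summed to 53.7 and 158 CPM in members of MGJ and MGJ2, against 12446 and 11909 in B-lineage cells, and the bin at 50 to 100 per 10000 in MGJ2 was at 1864, although its median cell had none. The 11 T and NK cell genes summed to 12.1 and 63.8 and the 9 erythroid genes to 43.4 and 8.86. Erythroid genes were at 1866 in low-granule neutrophils of MGJ and 16.8 in MGJ2. Fibroblast and osteoblast genes summed to 2349.7 and 65.4 in members, from 1069 at 400 or more to 10600.4 at 50 to 100 in MGJ, and chondrocyte genes to 1126 and 104 against 99139.8 and 106530.3 in Acan-rich cells. The 5 platelet genes reached 1039.7 in the bin at 50 to 100 of MGJ and 61.8 in its lowest bin, and were lower in the other bins of both libraries. Doublet scoring called 6 members of MGJ and 10 of MGJ2, and the members' summed eosinophil and basophil genes were 3.73 and 14.7. Levels in their own cells were measured for the B-lineage and chondrocyte lists alone, and the part of foreign RNA in the levels of the lower bins was not tested.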

How the data were processed

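Calluses of wild-type mice were profiled by 10x 3' scRNA-seq in 2 libraries. The deposited matrices hold UMI counts per gene and barcode that the authors made with Cell Ranger 4.0.0 on GRCm38, per the file headers and the submitters' processing notes, which also name Seurat; no normalization was applied to them. Barcodes with at least 200 genes and at most 20% mitochondrial UMIs were kept, and members were chosen by the levels given above. The members and all gene lists were chosen with earlier results of these data known. Counts were summed over the cells of a population and divided by the population's total, as UMIs per 1000000 UMIs (CPM). Levels have exact Poisson intervals, shares exact Clopper-Pearson intervals and ratios exact conditional binomial intervals, all at 95%. A population at 0 was set to a floor of 3 counts. Ratios used genes of at least 50 CPM in either population. Named genes were the 10 in each direction with the largest fold in each contrast, ranked by the smaller of the libraries' absolute log2 ratios, besides genes of the rule and lists. No test between groups was made, since neither library could be tied to a group. Doublets were not removed; Scrublet, run within scanpy 1.11.5, called 1.02% and 3.05% of barcodes, where loading would give 10.8% and 6.25%, and removing its calls was an alternative. For shares of cells with a UMI, barcodes were thinned to 1000 UMIs. Alternatives changed the cuts, depth, weighting, denominator, comparison cells and thinning. Tables were handled with pandas 2.3.3 and intervals taken from scipy 1.17.1 (Python 3.11.15), and the scripts were tested on simulated data with known ratios. Promoter sequences came from RefSeq (GRCm38.p6).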

Additional observations from a re-analysis of the deposited data

Results flagged for a closer look

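Barcodes outside the members that met every other cut were more than a count of 0 allows. The absence of Csf1r UMIs, the receptor of macrophage colony-stimulating factor, was the only cut that set aside 22 of 702 barcodes in MGJ (3.13%, exact 95% interval 1.97 to 4.71%) and 60 of 736 in MGJ2 (8.15%, 6.28 to 10.4%). Their median depth was 13014.5 and 11812 UMIs, above the 5323.5 and 7160 of members, and their median Csf1r count was 1 UMI in both libraries. Ly6g was at 109 and 222 CPM in them, against 252 and 296 in members, and Mmp8 at 177 and 772 against 559.5 and 954. Cd74, the invariant chain of antigen presentation, was at 443 and 1074 against 61.6 and 171. F13a1, a monocyte transglutaminase, was at 54.5 and 122 against 6.36 and 1.11. The monocyte and immature myeloid marker Ly6c2 was lower than in members, at 395 and 767 against 588 and 833. Lyz2 was at 4414 and 6941 against 4117 and 4989. These genes were chosen after their values were seen, and the part of doublets and of greater depth in this group was not tested.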

How the results depend on the processing

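Of 638 values recomputed under alternatives, 507 stayed within the spread or count limit set for them, 128 moved and 3 turned in sign. Most of these values were log2 ratios of named genes against low-granule neutrophils, of which 418 stayed, 107 moved and 3 turned. Genes named for the size of their ratio could hardly turn in sign. List medians, some of which turned in sign as given above, were not among the 638 values, so these counts do not measure how stable the lists are. A cut of 10 in place of 20 per 10000 for Camp, Ngp and Ltf gave shares of 5.94% in MGJ and 9.35% in MGJ2, and a cut of 50 gave 4.47% and 7.99%. With the genes of the rule left out of the denominator, 791 genes in MGJ and 1235 in MGJ2 were higher than in low-granule neutrophils and 334 in MGJ were lower, and 819 and 1025 were higher than in progenitors. With genes of at least 20 CPM, which admits more genes, 610 and 1294 were higher than in low-granule neutrophils, 880 in MGJ were lower, and 2124 and 2175 were lower than in progenitors. Against low-granule neutrophils low in Ccl3 and Ccl4, chosen after seeing the data, 176 genes were higher in MGJ, and the log2 ratios of Ccl3 (2.64 in MGJ) and Ccl4 (2.96 in MGJ and 0.40 in MGJ2) turned positive, as the comparison cells were picked for low levels of these genes. Thinning to 2000 UMIs, which keeps more molecules of each cell, gave shares with a UMI of 36.5% and 42.1% for Ly6g, 50.1% and 61.4% for Mmp8 and 10.8% and 16.2% for Mki67. The alternative with S100-rich progenitors was not run in MGJ, where 46 cells were under the minimum of 50. No paired analysis was possible because the result comes from no test, each library being a single sample that the labels put in no group. Depth per low-granule neutrophil limits the detection of rare genes there, and no value has an error between animals.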
